A study of Gasterosteus aculeatus with 36 samples.

Results

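Male threespine stickleback larvae (*Gasterosteus aculeatus*) were compared between hatching and 8 days later. The comparison rests on 6 of the 36 fish of the series, 3 males at 0 days post hatching (dph, stage 26 larvae) and 3 males at 8 dph, which were taken by the sex and age in their labels with no measured value used. Of the 25258 genes counted, the 22168 with enough reads were tested, and the genes of germ cells, the gonad and the Y chromosome were examined one by one. The whole series holds 18 males and 18 females, 3 of each sex at 6 stages, and the 3 males at 4 dph and the females of the same ages were used here only to date a change or to set it beside the other sex. All 6 males were wild-type, lab-derived progeny of wild-caught fish. They were raised at 18 °C in salt water of 3.5 ppt (pH 8.0) with 16 h of light and 8 h of darkness. Fry were fed brine shrimp after hatching, and whether the males sampled at 0 dph had been fed is not given. The study drew on a Washington population of the USA (Port Gardner Bay) and on one of the Japan Pacific Ocean (Akkeshi), and the labels give neither the population nor the clutch of a fish. RNA came from the whole animal, each library is 1 fish, and a fish was sampled once. In RNA of a whole larva, fewer cells of a type and less RNA per cell cannot be told apart.

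In teleosts the gonad at hatching is a primordium of a few germ cells among somatic supporting cells. Anti-Müllerian hormone (Amh) is a growth factor of the TGF-β family that supporting cells secrete. It acts through a dedicated type II receptor and the type I receptors and Smad proteins of the BMP pathway, and in several fish it restrains the multiplication of germ cells. Threespine stickleback males carry an extra copy, *amhy*, on the Y chromosome, beside the autosomal *amh* of both sexes. Outside the gonad the same days span the end of the yolk supply and the start of feeding.

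Counted reads ranged from 17032009 to 29356027 in the 3 males at 0 dph and from 25458635 to 30767228 in the 3 at 8 dph. Levels are given as normalized read counts, the deposited counts per gene divided by a size factor for each library, in the order of replicates 1, 2 and 3. Fold changes are on the log2 scale (logFC, 8 dph relative to 0 dph, ± SE) from edgeR's quasi-likelihood test on the read counts. A gene was called at an adjusted p (Benjamini-Hochberg over all 22168 tested genes) under 0.05. Replicate 1 at 0 dph stood somewhat apart from the other fish of its group. Of 18607 genes that averaged 50 or more normalized read counts, 134 differed by more than 4-fold between it and the mean of the other 2 fish, against 73 and 82 genes for replicates 2 and 3 and 40 to 47 genes for the fish at 8 dph. The library of replicate 1 at 0 dph had the fewest counted reads of the 6 males (17032009). It carries fish number 11, and the other males of that age numbers 2 and 5. Whether replicate 1 came from another clutch is not given, and the part of its lower depth in these differences was not tested. Reads of *amhy* were present in all 6 males.

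Between hatching and 8 dph, 47.6% of all tested genes were called. Of these, 5259 genes (23.7%) were higher and 5292 (23.9%) were lower at 8 dph, and without replicate 1 of 0 dph the counts were 4894 and 5035. The median size of a called change was 0.96 on the log2 scale among higher genes and 0.70 among lower genes, and 970 genes rose against 311 that fell by more than 4-fold. More genes were called in the first 4 days than in the next 4. From 0 to 4 dph 3535 genes rose (15.9%) and 3406 fell (15.4%), together 31.3% of tested genes, and from 4 to 8 dph 605 rose (2.73%) and 764 fell (3.45%), together 6.18%. Both intervals share the 4 dph fish, and each shares fish with the whole interval. Among the 5259 genes higher at 8 dph the median logFC was 0.65 over the first interval and 0.27 over the second.

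Genes of germ cells and the gonad were called in a smaller share than genes as a whole. Over the 6 lists of germ cell and gonad genes, 164 genes were tested, of which 26 rose and 31 fell, so that 34.8% were called against 47.6% of all genes. The lists differed, with 26.3% of germ cell, 30% of meiosis and 7.69% of brain and pituitary genes called. For supporting cell, steroid synthesis and AMH and BMP signalling genes it was 39.1%, 45.5% and 50%. Many germ cell and meiosis genes had few reads, and the part of that in the share of calls was not tested. The lists were put together by hand from general knowledge of vertebrate gonads, and many of their members are also active elsewhere in a larva. The largest called rises were those of *gsdf* (logFC 4.01), *gh1* (2.16), *esr2b* (1.89), *rbm44* (1.77) and *dmc1* (1.75). The largest called falls were those of *mov10l1* (-2.79), *gata4* (-2.78), *sycp2l* (-2.53) and *prdm14* (-2.22). The calls of *dmc1* and *prdm14* were lost when some single fish was left out. No gene of these lists differed between the sexes in its change over the interval after adjustment.

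**Figure D1:**
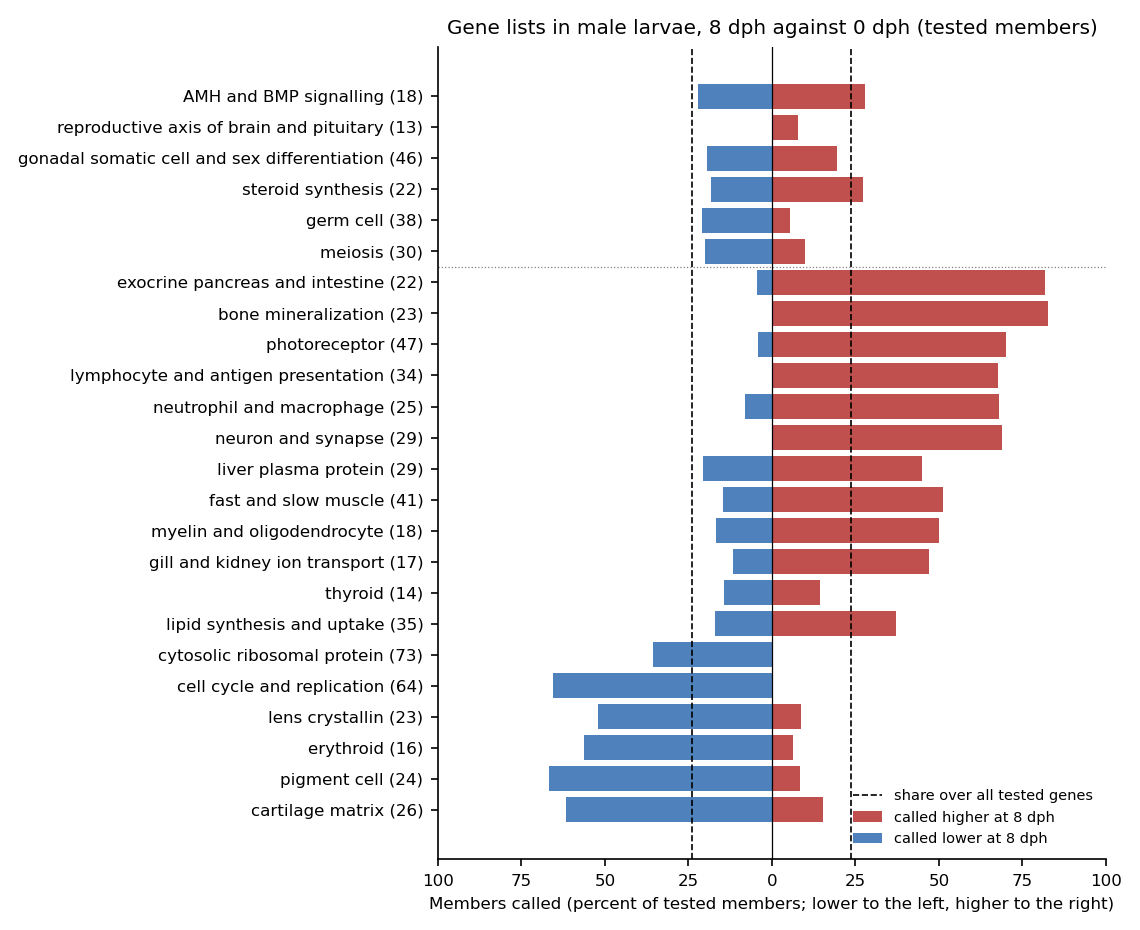
Share of tested members of each gene list called higher (right, red) or lower (left, blue) in males at 8 dph relative to 0 dph, in percent, with the number of tested members in parentheses and dashed lines at the shares over all tested genes (23.7% higher and 23.9% lower). The 6 germ cell and gonad lists stand above the dotted line and stay near or inside the dashed lines, while the lists of digestive, skeletal, sensory and immune genes reach far to the right and those of cartilage, pigment and cell division far to the left.

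The hormone genes come first. The coding sequences of *amh* (1590 bases) and *amhy* (LOC120812167, 1566 bases) are alike at 78.5% of 1557 aligned bases, which bears on how far reads of one can be counted for the other. The stretch of 120 bases around their longest identical run is shown from the alignment supplied with the study (bases 1150 to 1269 of the *amh* and 1126 to 1245 of the *amhy* coding sequence, 5′ to 3′), with the 24 bases that differ in capitals.
amh: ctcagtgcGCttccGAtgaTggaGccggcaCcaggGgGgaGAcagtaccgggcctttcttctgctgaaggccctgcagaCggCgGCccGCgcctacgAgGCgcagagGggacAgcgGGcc
amhy: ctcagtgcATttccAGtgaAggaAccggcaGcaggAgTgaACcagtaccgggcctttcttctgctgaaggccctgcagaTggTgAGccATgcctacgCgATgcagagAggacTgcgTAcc
The longest run without a difference is 37 bases, shorter than the reads of 150 bases, and every stretch of a read's length in either coding sequence held at least 19 differing positions. Reads that lie in the coding part of one gene therefore differ from the other gene at many positions.

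Neither ligand gene was called between 0 and 8 dph, and *amh* was lower at 4 dph. *amh* had 37.1, 14.9 and 23.9 normalized read counts in the males at 0 dph and 23.6, 14.8 and 19.7 at 8 dph, a mean of 25.3 ± 11.2 against 19.4 ± 4.38 (SD, n = 3). *amhy* had 19.9, 20 and 8.76 at 0 dph and 13.6, 33.1 and 9.44 at 8 dph, a mean of 16.3 ± 6.49 against 18.7 ± 12.7 (SD, n = 3). The ages overlapped for both genes, and the fish of one age spread more widely than the ages differed. The difference in means of 8 dph from 0 dph was -5.94 for *amh*, 2.47 for *amhy* and -3.48 for their sum (exact two-sided permutation tests, p = 0.4, 0.8 and 0.7, where 3 fish against 3 cannot go below 0.1). The sum takes both genes unscaled, whereas the study's total scales *amhy* by transcript length. With *amhy* scaled by coding length the difference in the sum was -3.44. The coding lengths are close (1590 and 1566 bases), so this scaling is far smaller than the study's, which was not applied here. The edgeR test gave logFC -0.44 ± 0.41 for *amh* (adjusted p = 0.39) and 0.13 ± 0.58 for *amhy* (adjusted p = 0.876). At 4 dph the males had 12.5, 11 and 6.78 for *amh* and 37.4, 20.58 and 16.3 for *amhy*. For *amh* every fish at 4 dph was below every fish at 0 dph, and this fall was called (0 to 4 dph logFC -1.35 ± 0.44, adjusted p = 0.0202). The sign of the small differences rested on single fish: without replicate 3 at 0 dph or replicate 2 at 8 dph the *amhy* difference was -1.28 or -4.74, and without replicate 1 at 0 dph or replicate 3 at 8 dph that of the sum was 4.25 or 1.01.

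The receptor gene *amhrII* (LOC120835457), which encodes the type II receptor of Amh, had few reads in males. It had 2.65, 1.75 and 3.98 normalized read counts at 0 dph and 5.44, 3.49 and 6.29 at 8 dph (logFC 0.74 ± 0.80, adjusted p = 0.47). The females at 8 dph had 34.1, 30.0 and 24.2, well above every male (female logFC 2.57 ± 0.66, adjusted p = 0.00205), but the difference between the sexes in the change was not called (unadjusted p = 0.0982, adjusted p = 1).

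Of the 18 genes of AMH and BMP signalling, all of them tested, 5 rose and 4 fell (50% called, against 47.6% of all genes), with a median logFC of 0.07 against 0.00 over all genes. With the size factors of the RLE method in place of TMM the split was 7 higher and 3 lower. Among the Smads that carry the signal, *smad9* had 58.3, 78.7 and 55.0 normalized read counts at 0 dph and 136, 214 and 149 at 8 dph, and *smad1* had 590, 456 and 480 against 875, 897 and 853. Every fish at 8 dph was above every fish at 0 dph for both genes (*smad9* logFC 1.29 ± 0.25, adjusted p = 9.13e-05, and *smad1* 0.70 ± 0.12, adjusted p = 2.71e-05). Their relative *smad5* went the other way, from 512, 484 and 463 to 409, 401 and 356 (logFC -0.41 ± 0.12, adjusted p = 0.00526). Among receptors, *acvr2ab*, a type II activin receptor gene, rose (logFC 0.61 ± 0.12), and the type I receptor genes *bmpr1bb* (-0.57 ± 0.12) and *acvr1l* (-0.37 ± 0.10) fell. The rises of *smad4a* and *id2a* (0.27 and 0.32) and the fall of *smad6b*, which encodes an inhibitory Smad and lies on the X (-0.45), were each lost when at least 1 fish was left out. These genes act in many tissues.

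The supporting cell genes were split. Of 51 genes of gonadal somatic cells and sex differentiation that were counted, 46 were tested, of which 9 rose and 9 fell. That is 19.6% each way, against 23.7% and 23.9% of all genes, with a median logFC of -0.01. The RLE size factors and DESeq2 gave 14 higher and 8 lower. The 5 untested genes, *dmrt1* among them, had at most 5.44 normalized read counts in any of the 6 males. The largest rise was that of *gsdf*, gonadal soma derived factor, a TGF-β family gene of fish supporting cells. Males had 5.30, 5.25 and 9.56 normalized read counts of *gsdf* at 0 dph, 32.4, 36.4 and 35.2 at 4 dph, then 181, 118 and 59.0 at 8 dph. The 3 ages did not overlap, though the fish at 8 dph spread widely (logFC 4.01 ± 0.55, adjusted p = 7.31e-07). Females rose as well, from 4.13, 6.81 and 1.46 to 159, 164 and 103 (logFC 5.01 ± 0.58), and the difference between the sexes in the change was not called (adjusted p = 1).

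Of the 5 sex steroid receptor genes in this list 3 rose. *esr2b*, which encodes an estrogen receptor, had 41.1, 22.7 and 27.08 normalized read counts at 0 dph and 136, 116 and 102 at 8 dph (logFC 1.89 ± 0.38, adjusted p = 0.000166). Its paralog *esr2a* had 76.9, 78.7 and 102 against 220, 161 and 214 (1.12 ± 0.22, adjusted p = 0.000157). The androgen receptor gene *ar* (LOC100174876) had 57.0, 38.5 and 43.8 against 94.3, 136 and 112 (1.22 ± 0.27, adjusted p = 0.000395). All 3 genes were higher in every male at 8 dph than in any at 0 dph, and *esr2b*, *esr2a* and *ar* rose in females too (1.37, 1.2 and 1.24). The other 2, named after their values were seen, were not called: *esr1*, another estrogen receptor gene, had a mean of 55.7 at 0 dph and 44.8 at 8 dph (-0.40, adjusted p = 0.285), and *pgr*, the progesterone receptor gene, 23.6 and 22.3 (-0.18, adjusted p = 0.773).

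The falls in this list were led by *gata4*, which encodes a transcription factor of the gonad, the heart and the gut. It had 660, 709 and 908 normalized read counts at 0 dph, 286, 246 and 248 at 4 dph, then 104, 125 and 123 at 8 dph. The ages were apart at both steps (logFC -2.78 ± 0.21, adjusted p = 5.56e-12). *wt1b*, a Wilms tumour gene of the kidney and gonad, fell from 294, 171 and 237 to 107, 126 and 122 (-1.06 ± 0.21). *foxl2a*, known for its part in ovaries and also expressed in the pituitary and around the eye, fell from 178, 190 and 159 to 146, 115 and 119 (-0.56 ± 0.17, adjusted p = 0.00646). *wnt4b* (-0.76), *emx2* (-0.56) and *gata6* (-0.52) fell by less, the last with a call lost on leaving out a fish (adjusted p = 0.0515 without replicate 1 at 0 dph). *sox9b* (LOC120827768) had 1129, 1064 and 1031 against 1300, 1080 and 1030 (logFC 0.00 ± 0.10), and *nr5a1a*, the steroidogenic factor gene, 46.4, 41.1 and 50.2 against 70.7, 61.9 and 53.5 (0.35 ± 0.30, adjusted p = 0.361).

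**Figure D2:**
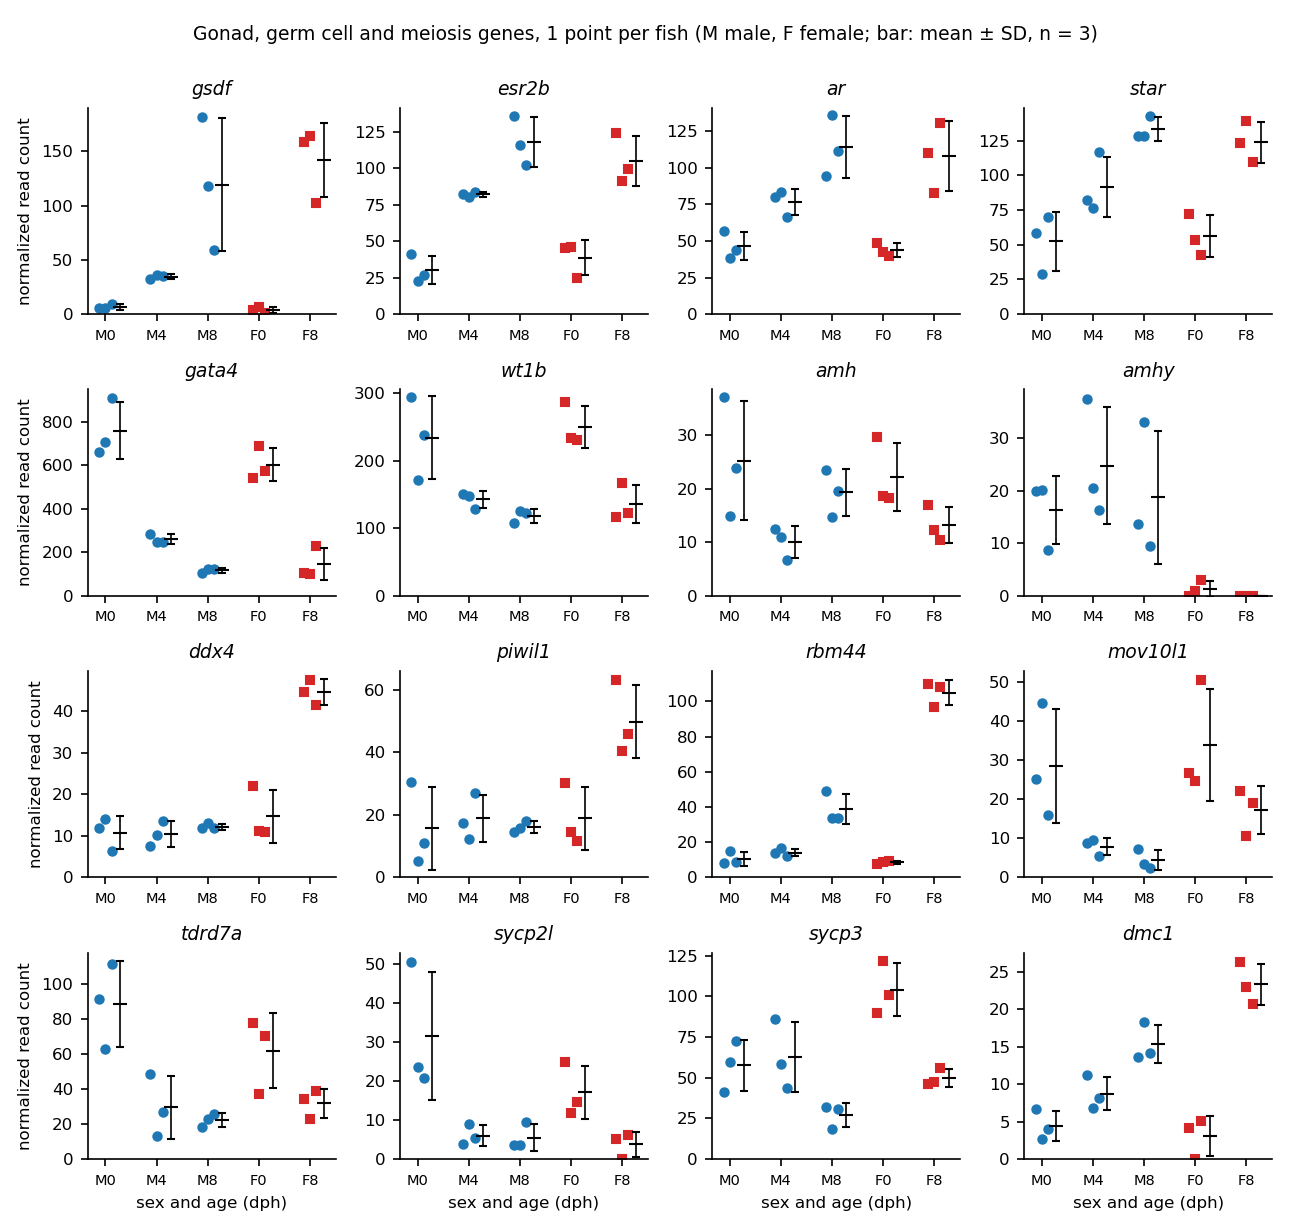
Normalized read counts of 16 gonad, germ cell and meiosis genes, 1 point per fish, in males at 0, 4 and 8 dph (blue circles, M0 to M8) and females at 0 and 8 dph (red squares, F0 and F8), with the mean ± SD of 3 fish beside each group and an axis from 0 in every panel. Males at 8 dph stand above those at 0 dph for *gsdf*, *esr2b*, *ar*, *star*, *rbm44* and *dmc1* and below them for *gata4*, *wt1b*, *mov10l1*, *tdrd7a*, *sycp2l* and *sycp3*, and the ages overlap for *amh*, *amhy*, *ddx4* and *piwil1*.

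Steroid synthesis genes were called in 10 of 22 tested members, 6 higher and 4 lower (45.5% called, against 47.6% of all genes; median logFC -0.05). On leaving out 1 fish at a time 2 to 5 members were called higher, 3 of them without replicate 1 at 0 dph. The *star* gene encodes the protein that carries cholesterol into the mitochondrion, the first step of steroid synthesis. It had 58.3, 28.9 and 70.1 normalized read counts at 0 dph and 129, 128 and 143 at 8 dph, with no overlap (logFC 1.26 ± 0.44, adjusted p = 0.0191, and 0.11 without replicate 2 at 0 dph, which had the lowest value). *hsd17b3*, whose product makes testosterone in mammals, had 39.8, 28 and 35.8 against 113, 63.6 and 104 (1.36 ± 0.39, adjusted p = 0.00479), with 99.8, 148 and 183 at 4 dph. Brain aromatase *cyp19a1b* (LOC120808695) and *cyp21a2* (LOC120811016), a gene of corticosteroid synthesis, were called higher at 0.95 and 1.33, and *hsd20b2* and *hsd3b7* at 1.40 and 0.32, and each of these 4 calls was lost without some single fish. *hsd17b12a*, an X-linked gene whose product also elongates fatty acids, fell from 952, 897 and 902 to 411, 364 and 414 (-1.29 ± 0.14, adjusted p = 2.18e-08). *srd5a1*, a steroid 5α-reductase gene, fell from 359, 268 and 250 to 169, 175 and 167 (-0.86 ± 0.17). Gonadal aromatase *cyp19a1a* (LOC120811580) stayed at or below 5.51 normalized read counts in the 6 males and was not tested. *hsd17b1*, which encodes an enzyme that makes estradiol, had 0, 0.875 and 0 against 1.81, 0 and 0.787 (adjusted p = 0.553).

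Most germ cell genes were low in whole males and were not called. Of the 42 that were counted, 38 were tested, of which 2 rose and 8 fell (5.26% and 21.1%, against 23.7% and 23.9% of all genes). The median logFC was -0.24, and it was 0.07 with DESeq2, which tested more members. Without replicate 3 at 0 dph 6 members were called in place of 10. *ddx4*, the vasa RNA helicase gene that marks germ cells, had 11.9, 14.0 and 6.37 normalized read counts at 0 dph and 11.8, 13.1 and 11.8 at 8 dph (logFC 0.11 ± 0.48, adjusted p = 0.868). *piwil1*, which encodes a protein that binds piRNAs, the small RNAs that silence transposons in germ cells, had 30.5, 5.25 and 11.1 against 14.5, 15.7 and 18.1 (0.05 ± 0.44, adjusted p = 0.941). Both ages overlapped for both genes. *dazl*, *dnd1* and *nanos3*, all of them defining genes of primordial germ cells, stayed at or below 5.44 in every one of the 6 males. A change of a few reads was not detectable at this depth.

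The 2 genes that rose were *rbm44* and *gfra1a*. *rbm44*, which encodes an RNA-binding protein of germ cell bridges in mice, had 7.95, 14.9 and 8.76 normalized read counts at 0 dph, 13.7, 16.5 and 12.2 at 4 dph, then 48.9, 34.0 and 33.8 at 8 dph. Males at 8 dph stood above all males at 0 and 4 dph (logFC 1.77 ± 0.46, adjusted p = 0.00226). *gfra1a*, a GDNF receptor gene used by germline stem cells and also by nerves and kidney, rose from 510, 531 and 491 to 808, 805 and 698 (0.51 ± 0.16).

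*mov10l1*, an X-linked gene for a helicase needed to make piRNAs, had 25.2, 44.6 and 15.9 normalized read counts at 0 dph, 8.73, 9.60 and 5.42 at 4 dph, then 7.25, 3.49 and 2.36 at 8 dph. The ages at 0 and 8 dph did not overlap (logFC -2.79 ± 0.48, adjusted p = 2.47e-05). *tdrd7a*, a Tudor domain gene of germ granules that also serves the lens in vertebrates, had 91.5, 63.0 and 111 against 18.1, 22.7 and 26 (-2.07 ± 0.45, adjusted p = 0.000382). *rnf17*, *exd1* and *tdrd15*, other piRNA genes, were called lower (-1.50, -2.09 and -1.40), and each of these calls was lost without some single fish. Other piRNA and Tudor genes of the list were not called, such as *piwil2* (-0.86, adjusted p = 0.143), *tdrd9* (-0.83, adjusted p = 0.0581) and *tdrd1* (1.09, adjusted p = 0.0868), named after their values were seen. A call was also lost without a fish for *prdm14* (-2.22, adjusted p = 0.0585 without replicate 3 at 0 dph). *pou5f3*, the fish relative of the pluripotency gene Oct4, fell from 18.6, 7.00 and 12.7 to 2.72, 4.36 and 3.15 (-1.91 ± 0.50, adjusted p = 0.00219). *prdm1a*, active in primordial germ cells and many other cells, fell from 253, 276 and 304 to 150, 133 and 138 (-1.07 ± 0.19).

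Meiosis genes gave 3 rises and 6 falls among 30 tested of 34 (10% and 20%, against 23.7% and 23.9% of all genes). The median logFC was -0.36, and no tested member of the synaptonemal complex was called higher. *sycp2l*, a gene of chromosome axes in the oocytes of mammals, fell from 50.4, 23.6 and 20.71 normalized read counts to 3.63, 3.49 and 9.44 (logFC -2.53 ± 0.63, adjusted p = 0.00154). *sycp3*, an X-linked gene for another axis protein, had 41.1, 59.5 and 72.5 at hatching and still 86.1, 58.3 and 43.4 at 4 dph, but 31.7, 18.3 and 30.7 at 8 dph (-1.20 ± 0.28, adjusted p = 0.000924). Its fall was therefore seen only in the second interval (4 to 8 dph logFC -1.22). *cntd1* (-1.86), *ccnb3* (-1.24) and *hormad1* (-1.34) fell, the last with a call lost without some single fish, and *prdm9* (LOC120819790), known in mammals for placing recombination hotspots, fell by 0.45. The rise of *dmc1*, the recombinase gene of meiosis, from 6.63, 2.62 and 3.98 to 13.6, 18.3 and 14.2 (1.75 ± 0.66, adjusted p = 0.0304) was lost on leaving out any of 4 fish. *mlh3*, which also serves mismatch repair in dividing body cells, rose by 0.54. *sycp1*, a synaptonemal complex gene, was not called although its ages did not overlap, with 1.33, 1.75 and 3.19 against 6.34, 9.59 and 5.51 (1.57, adjusted p = 0.0825).

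In the brain and pituitary list 1 of 13 tested genes was called (7.69%, against 47.6% of all genes). *gh1*, the growth hormone gene of the pituitary, had 45.1, 44.6 and 28.7 normalized read counts at 0 dph, 32.4, 78.2 and 62.4 at 4 dph, then 202, 169 and 186 at 8 dph (logFC 2.16 ± 0.49, adjusted p = 0.0011). *gnrh3*, a releasing hormone gene, had 57.0, 43.7 and 61.3 against 41.7, 26.2 and 50.3 (-0.54 ± 0.40, adjusted p = 0.281). *cga*, the shared subunit of the gonadotropins and thyrotropin, had 19.9, 22.7 and 16.7 against 31.7, 21.8 and 24.4 (0.31 ± 0.42, adjusted p = 0.572).

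The female fish show where the male values sit. Females of the same ages gave 5106 rises and 5052 falls, 45.8% of tested genes, and the test of the difference between the sexes called 1 gene of 22168 (0.00451%, edgeR). The gene, LOC120809390, was named after its values were seen. It lies on the X in the gene table of another assembly than the one used for counting, so its placement is uncertain here. Males had 1.33, 23.6 and 21.5 normalized read counts at 0 dph and 3.63, 6.98 and 0 at 8 dph, and females 17.2, 32.3 and 39.6 against 307, 335 and 446. The sexes overlapped at hatching and stood far apart at 8 dph (difference in change -5.83 ± 0.85, adjusted p = 0.00271). The test called 2 genes with DESeq2 and none with only the 12 fish of both sexes at both ages in the fit, and 601 genes had an unadjusted p under 0.05 in the main test. It also called none when replicate numbers were used as blocks of a male and a female within each age, where LOC120809390 had -5.64 ± 0.90 (adjusted p = 0.0749) and 646 genes had an unadjusted p under 0.05. Among the 164 germ cell and gonad genes 8 had an unadjusted p under 0.05 with those blocks, beside the 646 of all 22168. In the main test 11 of the 164 did, beside the 601 of all 22168, and none was called. *ddx4* was one: females had 22.0, 11.1 and 11 normalized read counts at 0 dph and 44.6, 47.6 and 41.4 at 8 dph (logFC 1.51 ± 0.43, adjusted p = 0.00534), while males stayed between 6.37 and 14.0 (difference in change, unadjusted p = 0.0394, adjusted p = 1). *rbm44* rose to 110, 96.9 and 108 in females at 8 dph, above the 48.9, 34.0 and 33.8 of males (female logFC 3.53, unadjusted p of the difference 0.0114). *piwil1* rose in females to 62.9, 40.5 and 45.8 (1.32, unadjusted p of the difference 0.0413). *mov10l1* was at 22.3, 10.6 and 19 in females and at 7.25, 3.49 and 2.36 in males at 8 dph (female logFC -1.02, unadjusted p of the difference 0.00991). At 0 dph the sexes overlapped, with 26.9, 24.7 and 50.5 in females and 25.2, 44.6 and 15.9 in males. Males carry 1 copy of the X, and the part of that in these values was not tested. For all 3 the adjusted p of the difference was 1, so that none is shown to change differently in males. That test concerns the change over the interval, not the sexes at a single age. The study compared the sexes directly at 8 dph and called *ddx4*, *piwil1*, *amhrII* and *hsd17b1* higher in females.

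**Figure D3:**
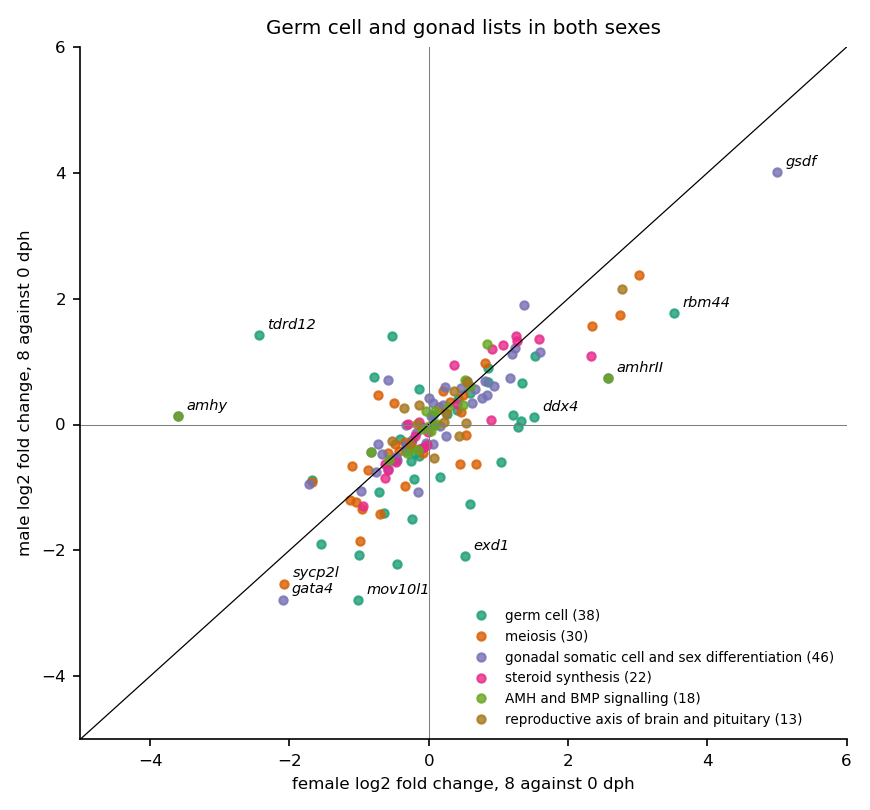
LogFC from 0 to 8 dph in males (vertical axis) against females (horizontal axis) for the tested members of the 6 germ cell and gonad lists, 1 point per gene and coloured by list, with the line of equal change. Most points lie near the line, *gsdf* and *gata4* far out along it, while *ddx4*, *rbm44* and *amhrII* lie below it and *amhy* lies to the left. Females had 0, 0.851 and 2.93 normalized read counts of *amhy* at 0 dph and no read at 8 dph, so its female value is set by the fit's prior count.

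A smaller share of Y-linked than of all genes was called. The count table holds 667 genes placed on the Y, of which 466 were tested, 47 rose and 53 fell (21.5% called, against 47.6% of all genes and 44.4% of 878 tested X-linked genes; median logFC -0.08). The Y and X of stickleback share many related genes, and 93 of the 466 had at least 50% of the male mean in females, so reads of X and Y copies may not be fully apart. The 265 tested genes whose mean over the 18 females was under 5% of that over the 18 males, out of 309 in the table, are described here as near absent from females. Of these 24 rose and 26 fell (9.06% and 9.81%, against 23.7% and 23.9% of all genes). The shares depend on the fish in the fit. With only the 18 males 32 rose and 59 fell (11.99% and 22.1%, background 22.7% and 23%). With only the 6 fish compared 39 rose and 58 fell (15.9% and 23.7%, background 26.6% and 24.1%). In those fits the share that fell was close to that of all genes, and the share that rose was below it. Their median level in the 6 males was 175 normalized read counts against 352 over all tested genes, and the part of that lower level in the share of calls was not tested. By the fish themselves, 50.6% of the 265 had ages that did not overlap, 63 higher and 71 lower at 8 dph, against 58.9% of all tested genes (34.1% higher and 24.8% lower).

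The Y-linked share of counted reads overlapped between the ages. It was 3.01%, 2.98% and 2.90% in the males at 0 dph and 2.64%, 3.01% and 3.28% at 8 dph (exact two-sided permutation test, p = 0.8). In every male of these ages the larger part of it came from LOC120812197, a gene with many reads in females. For genes near absent from females the share was 0.827%, 0.854% and 0.868% against 0.832%, 0.892% and 0.891% (exact two-sided permutation test, p = 0.3). The ages overlapped in this measure too.

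Apart from *amhy* (LOC120812167), none of the 265 genes could be given a gene symbol from the files or the gene table. They are named by their identifiers, and those below were chosen after their values were seen. Among the called genes, LOC120812214 had the largest fall, with 2867, 5532 and 5798 normalized read counts at 0 dph, 2119, 1835 and 2596 at 4 dph, then 471, 477 and 632 at 8 dph. The ages did not overlap at either step (logFC -3.26 ± 0.50, adjusted p = 4.74e-06). LOC120812343 rose from 66.3, 136 and 96.4 to 553, 592 and 440 (2.31 ± 0.35, adjusted p = 8.41e-06), with 549, 709 and 937 at 4 dph. LOC120812811 had 445, 1028 and 743 against 2270, 2318 and 2485 (1.58 ± 0.30, adjusted p = 9.43e-05), and LOC120812666 3150, 3642 and 3607 against 1701, 1542 and 1494 (-1.22 ± 0.24, adjusted p = 0.000151). LOC120812510 was uneven among the hatchlings, at 240 in replicate 1 and 46.4 and 22.3 in the other 2, before 515, 631 and 709 at 8 dph (2.57 ± 0.45). LOC120812222 had no read in the males at 0 dph and 3.63, 2.62 and 10.22 normalized read counts at 8 dph, at least 5.77-fold higher against a floor of 3 reads over the group.

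The Y-linked genes with the smallest p in the main fit of all fish all had reads in females as well. Of tested Y-linked genes with reads in females 24.9% were called in that fit, and 33.9% with only the 18 males. For those near absent from females the shares were 18.9% and 34.1%, so the ranking holds for the main fit only. LOC120812265 had 7490, 4803 and 5235 normalized read counts in males at 0 dph and 2220, 1991 and 1754 at 8 dph (logFC -1.64 ± 0.25, adjusted p = 4.42e-06), and it also fell in females, from 3762, 2484 and 2196 to 631, 790 and 792. LOC120812611 went from 363, 380 and 301 to 111, 102 and 155 (-1.59 ± 0.22), almost all of it between 4 and 8 dph (-1.34). LOC120812238 fell in males from 718, 548 and 537 to 226, 295 and 286 (-1.24 ± 0.18, adjusted p = 2.46e-06), while females had 122, 123 and 111 against 134, 134 and 110 (0.00). The difference between the sexes in its change did not survive adjustment (unadjusted p = 7.12e-05, adjusted p = 0.526). LOC120809574, LOC120808938, LOC120809068 and LOC120808948 rose by 2.76, 3.36, 1.56 and 2.08, and they rose in females by 3.12, 4.0, 1.71 and 1.81. Those 4 have identifiers far from the other Y-linked genes and were placed on the Y by another assembly than the one used for counting, so their Y linkage is uncertain here. LOC120812781 fell by 1.22.

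The Y-linked genes of highest level were uncalled in the main fit of all fish. LOC120812342, near absent from females, had 27017, 27997 and 33214 normalized read counts at 0 dph and 39782, 52015 and 51409 at 8 dph, with every older fish above every younger one (logFC 0.61 ± 0.72, adjusted p = 0.506). Its error in this fit, which also holds the females, is wide, and the part of the female fish in that error was not tested. Of the genes near absent from females, 18.9% were called in this fit and 34.1% with only the 18 males. Over all tested genes the shares in these fits were 47.6% and 45.7%. LOC120812453 had 36054, 46970 and 52188 against 53320, 70108 and 66839 (0.41 ± 0.26, adjusted p = 0.198) and LOC120812197 398618, 371453 and 368187 against 312395, 402343 and 459489 (-0.04 ± 0.48), both with many reads in females.

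**Figure D4:**
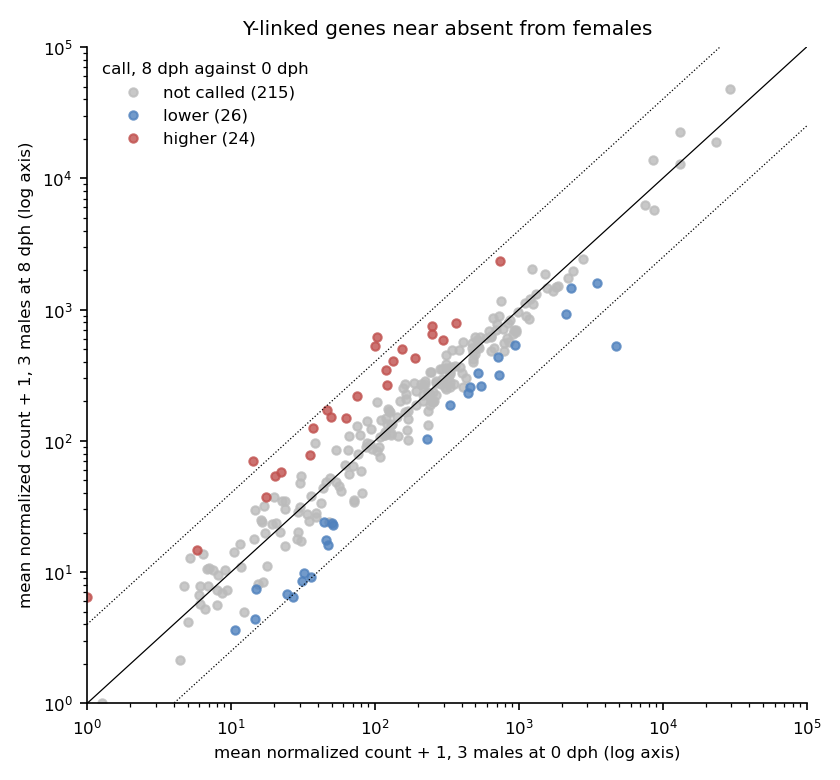
Mean normalized read count + 1 of 3 males at 8 dph (vertical, log axis) against 3 males at 0 dph (horizontal, log axis) for the 265 tested Y-linked genes near absent from females, 1 point per gene, with the line of equal level and dotted lines at 4-fold. Most genes lie close to the line, 24 called higher are red, 26 called lower are blue, and LOC120812214 is the blue point far below the line at right.

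The largest changes lay outside the gonad. The steepest falls were hatching genes. *galce*, the low choriolytic enzyme gene whose product digests the egg envelope, had 21431, 13870 and 18809 normalized read counts at 0 dph, 34.9, 17.8 and 47.4 at 4 dph, then 27.2, 26.2 and 20.4 at 8 dph (logFC -9.60 ± 0.35, adjusted p = 1.42e-18). *gahce1*, its high choriolytic partner, went from 14135, 6207 and 13350 to 40.8, 28.8 and 22.8 (-8.60 ± 0.40). Both were already at the low level by 4 dph. The list of hatching enzyme genes held 1 tested member, LOC120833764, which was not called (a mean of 31.1 against 51.0, logFC 0.60, adjusted p = 0.357). *afp4* followed, from 3269, 3354 and 2896 to 18.1, 40.1 and 15.7 (-7.10 ± 0.36). *cmn* (calymmin), a notochord gene of fish embryos, fell from 3466, 2167 and 3074 to 37.2, 48.8 and 33.8 (-6.27 ± 0.45). The other large falls were *slc2a15b* (-5.36) and *gch2* (-4.11) of yellow pigment cells, *tmprss9* (-4.37), *pck1* of glucose synthesis (-4.25), *comtd1* (-4.06) and the cartilage matrix gene *matn3a* (-4.01).

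Digestive genes gave many of the steepest rises. The bone mineralization genes *scpp9* (logFC 11.6, with no read at 0 dph) and *bglapl* (8.95), described below, rose as steeply. Of 22 genes of the exocrine pancreas and intestine, all tested, 18 rose and 1 fell (81.8% and 4.55%, against 23.7% and 23.9% of all genes). The median logFC was 3.0. *ela2l*, an elastase gene, had 26.5, 29.7 and 14.3 normalized read counts at 0 dph, 11310, 13319 and 13536 at 4 dph, then 21068, 40221 and 32486 at 8 dph (logFC 10.31 ± 0.57, adjusted p = 8.14e-15). Other pancreatic enzyme genes moved alike, *ela2* by 9.43, the carboxypeptidase genes *cpa4* (X-linked) and *cpb1* by 9.48 and 9.38, and the phospholipase gene *pla2g1b* by 8.26. *fabp2*, the fatty acid carrier gene of enterocytes, had 19.9, 15.7 and 8.76 at hatching, 3772, 4656 and 6415 at 4 dph, then 3170, 4042 and 2788 at 8 dph. Unlike the pancreatic genes it was no higher at 8 than at 4 dph (4 to 8 dph logFC -0.58). Outside this list the mucin-like gene LOC120807852, *fcgbp* (LOC120811009), which encodes a mucus protein, and *es1* rose by 10.22, 8.3 and 8.26. The 1 fall within the list, of the apolipoprotein A-IV-like gene LOC120811099 (-0.60), was lost without some single fish.

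**Figure D5:**
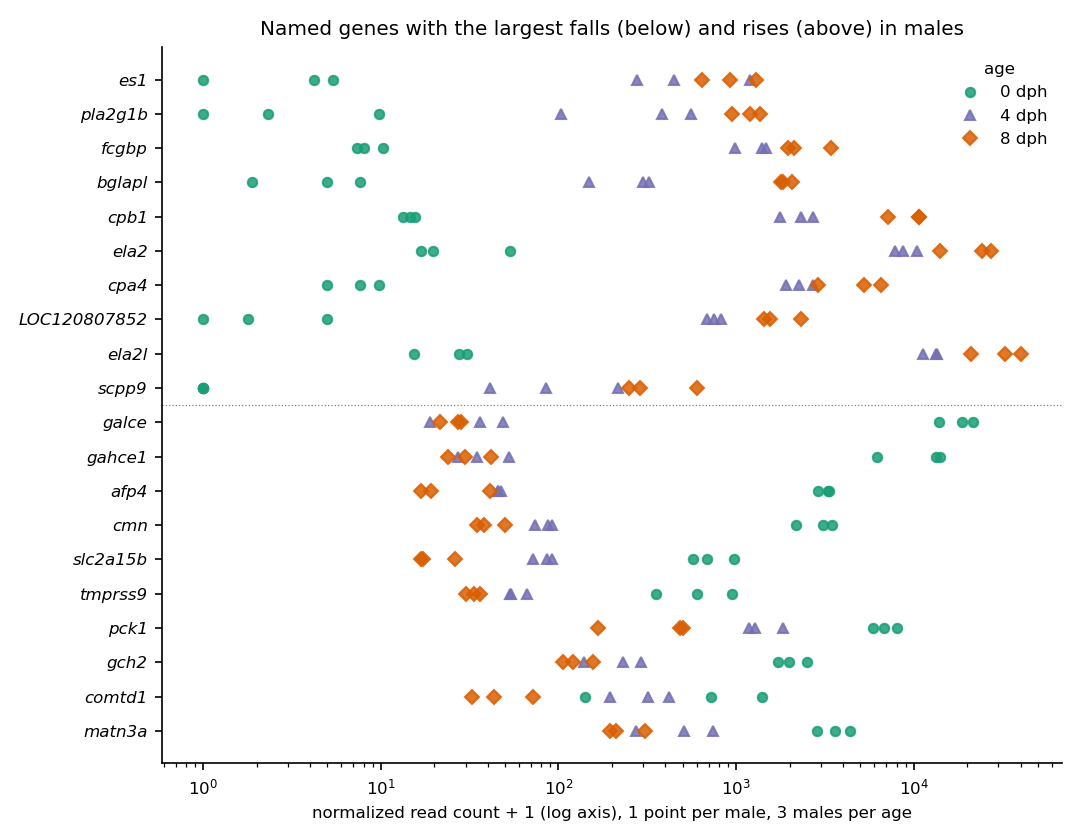
Normalized read count + 1 (log axis) of the 10 named genes with the largest rises (above the dotted line) and the 10 with the largest falls (below), 1 point per male, with 3 males at 0 dph (green circles), 4 dph (purple triangles) and 8 dph (orange diamonds). For the enzyme genes of the pancreas and the hatching enzyme genes *galce* and *gahce1*, the fish at 4 dph lie close to those at 8 dph and far from the hatchlings.

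Bone and cartilage went apart. Of 23 bone mineralization genes 19 rose and none fell (82.6% and 0%, against 23.7% and 23.9% of all genes, median logFC 1.90). *bglapl*, an osteocalcin gene, had 6.63, 0.875 and 3.98 normalized read counts at 0 dph, 147, 321 and 300 at 4 dph, then 1841, 1794 and 2069 at 8 dph (8.95 ± 0.43). *spp1*, osteopontin, rose from 92.8, 107 and 104 to 4352, 3682 and 4499 (5.27 ± 0.22), and *col10a1b*, a collagen gene of mineralizing tissue in fish, by 3.62. *scpp9*, a gene of the secretory calcium-binding phosphoproteins of teeth and scales, had no read at 0 dph and 248, 288 and 598 at 8 dph, at least 397-fold higher against a floor of 3 reads over the group. Of 26 cartilage matrix genes 4 rose and 16 fell (15.4% and 61.5%, median -1.22). *epyc* fell from 3600, 2967 and 2438 to 753, 630 and 741 (-2.17 ± 0.17), with *hapln1b* (LOC120831747, -2.26) and the type IX collagen gene *col9a3* (-1.78). *cnmd* (4.13) and *cilp2* (2.55), also cartilage genes, rose.

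Nervous and sensory genes rose with age. Of 47 photoreceptor genes 33 rose and 2 fell (70.2% and 4.26%, against 23.7% and 23.9% of all genes, median logFC 1.70). *gnat1*, rod transducin, had 38.4, 465 and 260 normalized read counts at 0 dph and 5569, 6265 and 6393 at 8 dph (4.46 ± 0.49). *sagb*, an arrestin gene, had 1.33, 92.7 and 44.6 against 1480, 1832 and 2014 (5.09 ± 0.51). Replicate 1 of the hatchlings was the lowest for both, and the rises stayed called without it. Myelin genes gave 9 rises and 3 falls of 18 (50% and 16.7%), and 10 and 1 with RLE size factors. The rises were led by *mpz* from 38.4, 84 and 50.2 to 2070, 1577 and 1693 (4.84 ± 0.25). Neuron and synapse genes gave 20 rises and no fall of 29 (69% and 0%), with *camk2a* at 1.63 and the neurofilament gene *neflb* (LOC120830536) at 2.15. Lens crystallin genes fell, 12 of 23 against 2 that rose (52.2% and 8.7%, median -0.72). Without replicate 2 at 0 dph or replicate 3 at 8 dph 9 or 8 lens genes were called in place of 14.

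Muscle and immune genes rose. Of 41 muscle genes 21 rose and 6 fell (51.2% and 14.6%, against 23.7% and 23.9% of all genes). The median logFC was 0.52, and 3 to 6 muscle genes fell when 1 fish at a time was left out. *ampd1*, which encodes the AMP deaminase of muscle, rose from 59.7, 239 and 158 normalized read counts to 7929, 14280 and 14231 (6.2 ± 0.43), and *myoz1a* rose by 3.92, while *mylpfb*, a myosin light chain gene, and *pgam2* fell by 1.46 and 1.5. Of 34 lymphocyte and antigen presentation genes 23 rose and none fell (67.6% and 0%, median 1.66). *cd74a*, the invariant chain of antigen presentation, had 79.5, 56.9 and 61.3 against 1072, 1124 and 1059 (3.97 ± 0.27), *lck* of T cells rose by 2.70 and *rag1* of receptor rearrangement by 2.07. Of 25 neutrophil and macrophage genes 17 rose and 2 fell (68% and 8%), with *mmp9* at 3.62 and *mpeg1.1* at 2.0 against *csf1ra* at -1.03.

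Red cell genes fell and then partly returned. Of 16 erythroid genes 9 fell and 1 rose (56.25% and 6.25%, against 23.9% and 23.7% of all genes, median logFC -0.86). *alas2*, the first enzyme of heme synthesis in red cells, had 3749, 3615 and 4013 normalized read counts at 0 dph, 474, 597 and 488 at 4 dph, then 1066, 898 and 997 at 8 dph. It fell over the first interval (-2.94) and rose over the second (0.91). The hemoglobin genes LOC120827727 (alpha) and LOC120827720 (beta) did the same, with -3.21 and -3.39 followed by 1.40 and 1.36. In all, 6 of the 16 erythroid genes rose between 4 and 8 dph while none fell, against 2.73% and 3.45% of all genes. The fall and the later rise both rest on the same 3 males at 4 dph.

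Genes of cell division fell. Of 64 cell cycle and replication genes none rose and 42 fell (0% and 65.6%, against 23.7% and 23.9% of all genes, median logFC -0.61). Among the falls were *cdc20* from 733, 617 and 628 normalized read counts to 248, 175 and 226 (-1.69 ± 0.17), *cdk2* (-1.48), *aurka* (-1.44) and *uhrf1* (-1.09). Of 73 cytosolic ribosomal protein genes none rose and 26 fell (0% and 35.6%, median -0.24). The count of falls was 14 with RLE size factors, 16 with DESeq2 and 15 without replicate 1 at 0 dph. Pigment cell genes gave 16 falls and 2 rises of 24 (66.7% and 8.33%, median -1.02), with the melanin genes *dct* (-1.46) and *pmelb* (-1.01) lower and *xdh* (LOC120817414, 1.27) higher. Liver plasma protein genes gave 13 rises and 6 falls of 29 (65.5% called, against 47.6% of all genes). Among them *serping1* rose from 14.6, 10.5 and 16.7 to 812, 705 and 1084 (5.86 ± 0.41). *rbp4*, the vitamin A carrier gene, fell from 17787, 14299 and 18802 to 3759, 3894 and 5341 (-2.05 ± 0.17). Ion transport genes of gill and kidney gave 8 rises and 2 falls of 17 (58.8% called). Lipid genes gave 13 and 6 of 35 (54.3% called), with a median logFC of 0.02 and the largest rise in *cd36*, the fatty acid transporter gene (4.77). Thyroid genes gave 2 and 2 of 14 (28.6% called), a smaller share than the 47.6% of all genes. The called thyroid genes included *duox*, up by 4.6, and *dio3a*, which inactivates thyroid hormone, down (-1.64).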

How the data were processed

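Stranded mRNA libraries of whole fish were sequenced as paired reads of 150 bases over 2 lanes. Per the study's methods and the labels, the authors trimmed reads with Trimmomatic 0.39, aligned them with HISAT to the stickleback assembly GAculeatus_UGA_version5, sorted them with SAMtools 1.17 and counted them per gene by strand with HTSeq 2.0.2 (NCBI annotation release 100). The authors deposited raw read counts of 25258 genes and a table of normalized counts, a signal made by dividing counts by DESeq2 1.44.0 size factors, with 870 genes of at most 9 reads left out. Levels in the text come from the latter and tests from the former.

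Read counts of all 36 fish (12 groups of stage and sex) were fitted with edgeR's quasi-likelihood test (edgeR 4.0.16, TMM factors, R 4.3.3) after filterByExpr, which kept 22168 genes, with adjustment of p-values after Benjamini-Hochberg. All fish share 1 estimate of the spread. The labels do not say whether the fish of a group came from separate clutches, so p-values measure only the spread between these fish. In counts simulated for males at 8 against 0 dph (21782 genes), 50 genes were changed at each size. Of genes changed 1.5-fold 44% were recovered, with 76% at 2-fold, 100% at 4-fold and 98% at 8-fold, beside 7 false calls. The changed genes were few and were drawn only from those with more reads. These shares therefore do not cover genes of few reads, such as most germ cell genes. Males of the same replicate number at both ages did not deviate together (correlations -0.011, -0.0097 and 0.032), so replicate numbers were not used as pairs over the interval. A male and a female of the same replicate number did so at 0 dph (0.487, 0.277 and 0.245) and less at 8 dph (0.144, 0.0737 and 0.0796), and the labels do not say why. Replicate 1 at 0 dph is fish number 11 for the male and 12 for the female in the library names.

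Gene names came from the files, the study's gene descriptions and the RefSeq gene table of assembly fGasAcu3.hap1.1, which gave 1743 of 11325 LOC entries a newer symbol by gene ID. Since that assembly is not the one used for counting, no coordinates are given. A gene without a place in the table was placed on a chromosome by its neighbours in identifier order (at least 0.6 of the 10 on each side).

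The members and gene lists were chosen with earlier results of these data known. Genes named are those of the study, up to 12 called members of each germ cell and gonad list, the 10 largest rises and falls among genes averaging 100 or more normalized read counts with groups that did not overlap, up to 4 called members of each other list in its main direction and 2 in the other, the 8 Y-linked genes of smallest p and the 3 of highest level, and the 5 genes outside the X and Y in each direction whose change differed most by sex. *dazl*, *dnd1*, *nanos3*, *sycp1*, *cga*, *gnrh3*, *esr1*, *pgr*, *piwil2*, *tdrd9*, *tdrd1*, LOC120833764, LOC120809390, the Y-linked genes near absent from females and those of the closing section without such a rule were named after their values were seen. Alternatives were RLE size factors, total counts only, no filter on low counts, DESeq2 1.42.0, fewer fish in the fit, a replicate block and leaving out each fish. The definition of Y-linked genes near absent from females, the replicate block within each age and the lists without replicate 1 at 0 dph were chosen after seeing the data. One member of the gene lists is counted but not reported by itself here.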

Additional observations from a re-analysis of the deposited data

Results flagged for a closer look

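LOC120809390, a gene without a symbol that another assembly than the one used for counting places on the X, changed differently in the sexes between 0 and 8 dph by the test of that difference, which was -5.83 ± 0.85 on the log2 scale for males relative to females (edgeR's quasi-likelihood test, adjusted p = 0.00271). Females went from 17.2, 32.3 and 39.6 normalized read counts to 307, 335 and 446, all 3 higher at 8 dph. Males had 59.9, 27.4 and 63.7 at 4 dph, between 1.33, 23.6 and 21.5 at hatching and 3.63, 6.98 and 0 at 8 dph. No gene was called with only the 12 fish of both sexes at both ages in the fit, nor with replicate numbers as blocks within each age (LOC120809390 at -5.64, adjusted p = 0.0749). Groups of 3 fish are too small to test whether a single fish stands apart.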

How the results depend on the processing

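The number of genes higher at 8 dph in males ran from 4954 to 6274 and that of lower genes from 4494 to 5398 over the settings that kept all fish of both ages, and on leaving out 1 fish at a time from 4541 to 4894 and from 4523 to 5035. Changes from 4 to 8 dph numbered 1369, and 865 with only the 18 males in the fit. Y-linked genes called numbered 100, 157 with only the 6 fish compared, 156 with the 18 males, 50 counting only genes near absent from females, and 76 to 93 without single fish. The change differed between the sexes in 1 gene, in 2 with DESeq2, in 0 with only the 12 fish compared, in 1 with the replicate block, in 0 with that block within each age (added after seeing the data) and in 1 to 4 without single fish, with 4 when replicate 1 or 2 of the females at 0 dph was left out. The difference in *amh* ran from -11.2 to -0.0307 without single fish, that of *amhy* from -4.74 to 7.11 (-1.28 without replicate 3 at 0 dph and -4.74 without replicate 2 at 8 dph) and that of their sum from -8.42 to 4.25 (4.25 without replicate 1 at 0 dph and 1.01 without replicate 3 at 8 dph). The cause was not tested. With the replicate number as a block, 5297 genes were higher and 5289 lower. Of 188 named genes tested, 25 lost their call in at least 1 of 13 alternatives, 1 gained one and none reversed. Genes of a few reads are limited by depth, and the lists hold genes used in many tissues.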

Other observations

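Some values of single fish stood far from those of their group, and the genes below were chosen for it except where the rule named them. The neighbouring identifiers LOC120817747 and LOC120817945 are both described as similar to CMP-N-acetylneuraminic acid hydroxylase, and reads of such like genes may not be fully apart. Males had 11.9, 4.37 and 7.17 normalized read counts of LOC120817747 at 0 dph and 1050, 358 and 890 at 8 dph, while replicate 1 of the females at 0 dph already had 685 against 11.1 and 5.86 in the other females. LOC120817945 followed the same fish, with 212 in that female against 6.81 and 10.3. *jtb*, a gene of cell division, had 2257 in replicate 1 of the males at 8 dph and 943 and 975 in the other males, while the 3 females of that age had 2246, 2282 and 2269.

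*tg*, the thyroglobulin gene, spread widely at both ages, with 156, 139 and 28.7 normalized read counts in the males at 0 dph and 56.2, 14.0 and 519 at 8 dph (edgeR's quasi-likelihood test, adjusted p = 0.4). *ldhba*, a lactate dehydrogenase gene, had 2497 in replicate 1 of the males at 0 dph and 188 and 123 in the others, before 1733, 2345 and 1553 at 8 dph. Y-linked genes near absent from females took 0.0381% of counted reads in replicate 3 of the females at 0 dph, against 0.00549% and 0.00689% in the other females of that age.

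The genes outside the X and Y whose change differed most by sex were not called after adjustment. Among them *trib3*, a stress-induced pseudokinase gene, had logFC -1.54 in males and -0.45 in females, and *mdm2*, which encodes the ligase that degrades p53, -0.81 in males and -0.01 in females. *nelfcd*, a gene of transcriptional pausing, went the other way, at 0.39 in males and -0.21 in females.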
